A study of Mus musculus with 8 samples.

Results

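The genes described here are the 10 named enzymes and subunits that make ceramide from palmitate, or break it down: Sptlc1, Sptlc2, Sptssa, Kdsr, Cers2, Cers4, Cers5, Cers6, Degs1 and Asah1. They were looked up by symbol through their Ensembl identifiers in a count table of 43629 genes, and all 10 were found and passed the filter on low counts. RNA was sequenced from mouse 3T3-L1 cells, a pre-adipocyte line that differentiates into adipocytes in culture. Every culture was differentiated with insulin, dexamethasone, isobutylmethylxanthine and rosiglitazone and, at day 8, was kept for 24 h in 1 of 4 states with 2 libraries each. These were untreated cells, cells given 2 μM A66 (an inhibitor of p110α, a catalytic subunit of PI3K), cells given 0.5 mM palmitate bound to bovine serum albumin (BSA), and cells given palmitate plus A66. The labels name no carrier control for the cells without palmitate, so palmitate and its BSA carrier cannot be told apart. The study's methods name another A66 dose and a DMSO vehicle for the comparison of A66 with control cells. The doses given here and all groups follow the sample labels. A66 blocks an enzyme, so that no transcript checks the A66 label directly.

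Ceramide is the core of complex sphingolipids such as sphingomyelin. Serine palmitoyltransferase joins serine to palmitoyl-CoA in the first committed step, ketosphinganine reductase reduces the product, ceramide synthases attach a second fatty acid, and a desaturase turns dihydroceramide into ceramide, which ceramidases cut back to sphingosine. Palmitate is thus a substrate of the pathway, and ceramide that accumulates under saturated fatty acid is known to dampen insulin signalling through Akt.

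Total counts ranged from 42247091 to 57529803 per library, and 3 counts, taken as the floor of detection, corresponded to 0.0521 to 0.0710 CPM (counts scaled to a common library total). The 10 genes had between 1735 and 21062 counts in a library. Over all genes, the 2 libraries of a group differed by more than counting noise (a mean chi-square per gene of 6.15 to 8.99, where 1 is expected from counting). The summed level of 9 adipocyte markers was 8512 to 8775 CPM in untreated cells and 7603 to 8387 CPM with palmitate plus A66. Of markers of other cells, Dlk1 (pre-adipocytes), Adgre1 (macrophages) and Kdr (endothelium) had 0 counts. Others were detected, with means over 8 libraries of 639 CPM for Col1a1, 206 for Pdgfrb, 97.3 for Pdgfra and 30.7 for Thy1 (pre-adipocytes and fibroblasts), 3.89 for Cd68 (macrophages) and 0.647 for Pecam1 (endothelium). All values are levels of bulk RNA, in which fewer cells of a type and less RNA per cell cannot be told apart.

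All 10 genes were expressed in every library. Levels of different genes were compared per kilobase of the union of their exons (RPKM), on the same library scaling. By this length Asah1 and Degs1 had the highest levels and Kdsr the lowest, with Asah1 at 94.5 ± 0.87 and Kdsr at 5.03 ± 0.024 RPKM in untreated cells. Sptlc1 lay at 13.8 ± 0.32, Sptlc2 at 9.09 ± 0.13 and Sptssa at 31.7 ± 2.4 RPKM. Per kilobase of coding sequence the order changed below Asah1 (a mean of 293 CPM per kilobase over the 8 libraries), with Sptssa (227) above Degs1 (206) and Sptlc1 (31.9) below Kdsr (40.4). None of the 10 genes shared at least 95% identity over 200 bases or more with another counted gene. Some exon bases lie in other genes too. On the opposite strand, Cers2 shares 75 with Setdb1 (20813 counts over the 8 libraries) and 144 with the antisense transcript 6330562C20Rik (379 counts), and Cers4 shares 886 with the pseudogene Vmn2r-ps89 and 214 with Gm36956, which had 2 counts over the 8 libraries. On its own strand, Sptssa shares 80 with Mir1892. Vmn2r-ps89 and Mir1892 were not analysed here. The library kit keeps strand, but whether counting used it is not given in the sources used here.

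The start regions of Sptlc1, Kdsr and Sptlc2 are shown because Sptlc1 was called lower with palmitate in both palmitate comparisons and Kdsr in the one with A66 present, whereas Sptlc2, the partner of Sptlc1 in the same enzyme, was not called in any comparison. Sequences come from RefSeq on GRCm38.p6 and run 5′ to 3′ on the strand of each gene. They were limited to bases before the gene start of GENCODE M21. Capitals mark GC boxes (GGGCGG or its complement CCGCCC) and CCAAT boxes (CCAAT or its complement ATTGG).
Sptlc1, chr13:53377398-53377611, minus strand: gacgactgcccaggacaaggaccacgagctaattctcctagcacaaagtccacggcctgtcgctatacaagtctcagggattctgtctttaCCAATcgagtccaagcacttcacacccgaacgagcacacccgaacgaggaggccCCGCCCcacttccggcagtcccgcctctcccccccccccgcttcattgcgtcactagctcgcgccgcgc
Kdsr, chr1:106759743-106759992, minus strand: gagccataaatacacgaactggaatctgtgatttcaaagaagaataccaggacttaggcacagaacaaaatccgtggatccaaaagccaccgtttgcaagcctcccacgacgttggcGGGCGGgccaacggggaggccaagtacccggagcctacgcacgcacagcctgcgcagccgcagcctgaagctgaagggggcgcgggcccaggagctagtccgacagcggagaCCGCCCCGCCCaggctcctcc
Sptlc2, chr12:87388356-87388605, minus strand: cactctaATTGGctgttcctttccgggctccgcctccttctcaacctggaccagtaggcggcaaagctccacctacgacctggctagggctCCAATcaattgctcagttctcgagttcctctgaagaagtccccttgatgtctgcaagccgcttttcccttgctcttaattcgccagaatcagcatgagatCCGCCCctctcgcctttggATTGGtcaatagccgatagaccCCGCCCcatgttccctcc
Sptlc1 held 1 GC box and 1 CCAAT box. Kdsr held 3 GC boxes, of which the 2 nearest the start overlap by 1 base, and no CCAAT box. Sptlc2 held 2 GC boxes and 3 CCAAT boxes. RefSeq windows were found for 9 of the 10 genes, all except Asah1. In the 250 bases before the RefSeq start, on either strand, a GC box was found for 7 of the 9 genes and in 32.7% of 32851 windows of that length from all genes. A CCAAT box was found for 5 of the 9, against 33.8% of windows. The E-box CACGTG was found for 3 of the 9, against 6.02%, and the forkhead motif GTAAACA (or TGTTTAC) for 0 of the 9, against 3.17%. Cers2 has 2 windows and counts once. The windows of Cers2, Cers4, Cers5 and Degs1 lie past the GENCODE gene start, inside the gene. Of the 5 genes whose windows lie wholly or mostly before that start, 4 held a GC box, 4 a CCAAT box and 1 the E-box. The shares over all windows were not limited to genes expressed in these cells, whereas all 10 genes were expressed. These matches describe the letters in the windows and were not tested as sites.

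**Figure D1:**
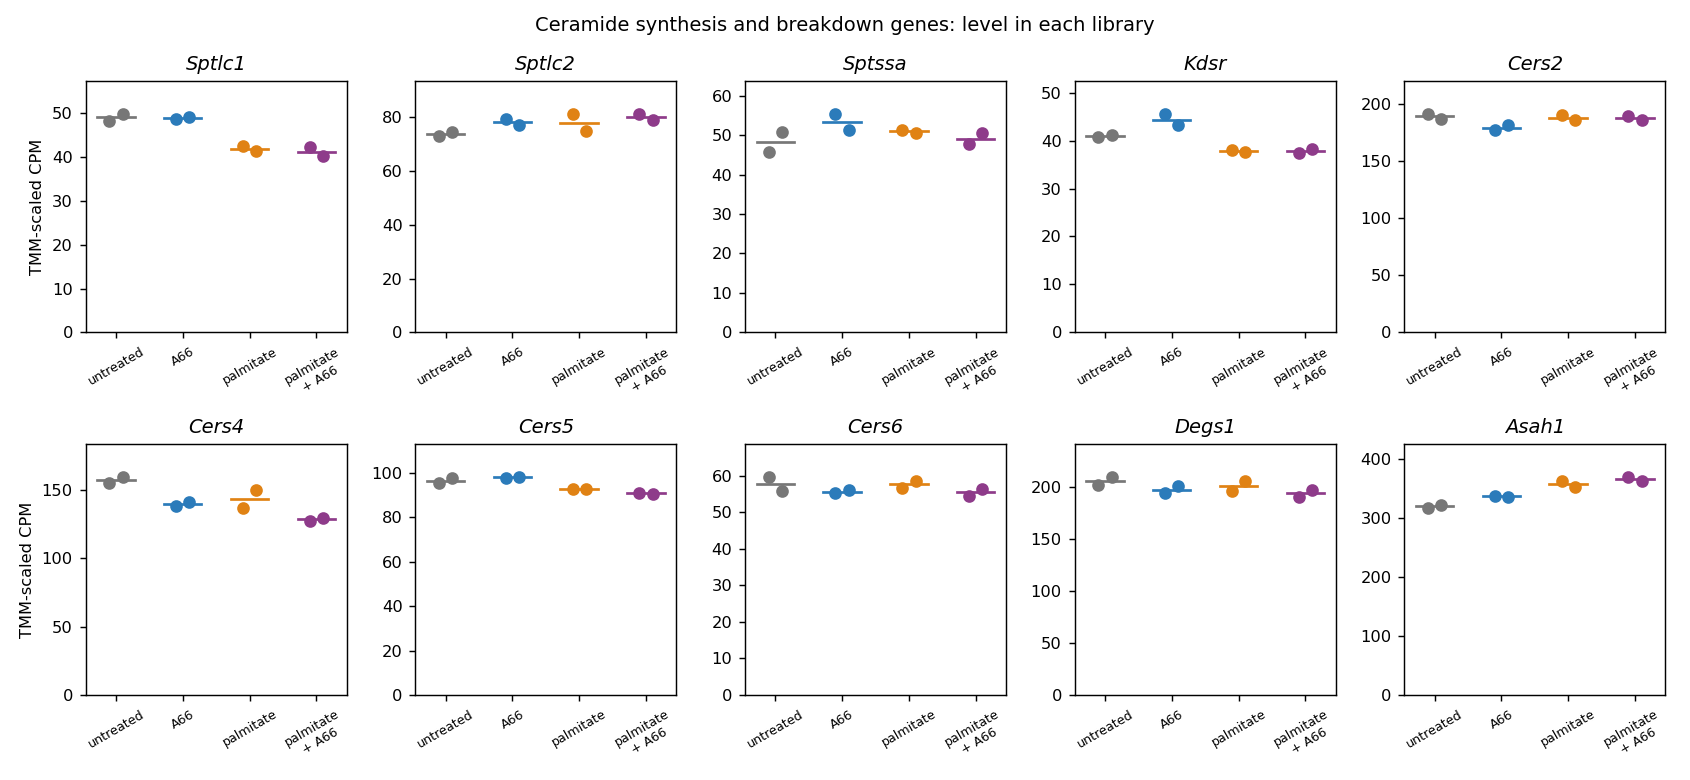
Level of each of the 10 genes in every library, in TMM-scaled CPM on axes that start at 0. Points are libraries and horizontal lines are group means (n = 2). The 4 palmitate libraries lie below the 4 others for Sptlc1, Kdsr and Cers5, and above them for Asah1.

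Serine palmitoyltransferase needs Sptlc1 and Sptlc2 as a pair, with a small subunit such as Sptssa that raises its activity. Sptlc1 (ENSMUSG00000021468, chr13:53332748-53377397, minus strand) had levels of 48.3 and 49.9 CPM in the untreated libraries, 48.8 and 49.2 under A66, 42.5 and 41.4 under palmitate, and 42.3 and 40.3 under both agents. All 4 palmitate libraries were below all 4 libraries without palmitate, and libraries with and without A66 overlapped. Sptlc1 was lower with palmitate than in untreated cells by a log2 fold change of -0.23 (SE 0.05, n = 2 per group, edgeR quasi-likelihood test with Benjamini-Hochberg adjusted p = 0.0273). With A66 present the log2 fold change for palmitate was -0.25 (SE 0.05, edgeR Benjamini-Hochberg adjusted p = 0.00686), from libraries that the first comparison does not contain. The first call was lost without any 1 of its 4 libraries, with adjusted p between 0.0684 and 0.129 in edgeR. The call with A66 present was lost without A66 replicate 1 (0.0811), A66 replicate 2 (0.0625) or palmitate plus A66 replicate 2 (0.0960).

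Sptlc2 (ENSMUSG00000021036, chr12:87305058-87388355, minus strand), which carries the catalytic lysine, lay at 73.0 and 74.5 CPM in the untreated libraries, 79.1 and 77.0 under A66, 81.1 and 74.8 under palmitate, and 81.2 and 79.0 under both agents. Its untreated libraries were the lowest, and the other 3 groups overlapped. For palmitate over untreated its log2 fold change was 0.08, with a 95% interval from -0.02 to 0.18. The ratio of Sptlc2 to Sptlc1, from levels per length, was 0.658 ± 0.006 for untreated libraries, 0.698 ± 0.017 under A66, 0.814 ± 0.031 under palmitate and 0.850 ± 0.013 under both agents (SD, n = 2). The ratio was thus higher in each palmitate library than in each library without palmitate. Per coding length the ratio was 1.27 in untreated cells, so which of the pair is higher depends on the length used, while the order of the groups was the same.

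Sptssa (ENSMUSG00000044408, chr12:54645392-54656573, minus strand) had 45.7 and 50.7 CPM in the untreated libraries, 55.4 and 51.3 under A66, 51.3 and 50.6 under palmitate, and 47.8 and 50.5 under both agents. Its untreated libraries overlapped those of both palmitate groups and lay below both A66 libraries, and no comparison was called. Without untreated replicate 2 it was called higher with A66 (log2 fold change 0.23, edgeR adjusted p = 0.00984, against 0.256 with all libraries). The other subunits Sptlc3 and Sptssb had at most 2 counts in any library and were not tested.

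Kdsr (ENSMUSG00000009905, chr1:106720459-106759727, minus strand), the ketosphinganine reductase, acts right after serine palmitoyltransferase. Its levels were 40.9 and 41.1 CPM in the untreated libraries, 45.6 and 43.2 under A66, 38.1 and 37.6 under palmitate, and 37.4 and 38.2 under both agents. The 4 palmitate libraries were the lowest, and the A66 libraries were above the untreated ones. Palmitate plus A66 was lower than A66 by a log2 fold change of -0.23 (SE 0.05, n = 2 per group, edgeR Benjamini-Hochberg adjusted p = 0.0139). Palmitate over untreated gave -0.11 with adjusted p = 0.383 in edgeR, and the difference between these 2 values, tested as the interaction of A66 with palmitate, was -0.12 (95% interval -0.27 to 0.04). The call with A66 present was lost without A66 replicate 1 (0.319), palmitate plus A66 replicate 1 (0.172) or palmitate plus A66 replicate 2 (0.0551).

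Ceramide synthases differ in the fatty acid they attach: Cers2 prefers very long chains, Cers5 and Cers6 prefer palmitate itself, and Cers4 chains of intermediate and greater length. Cers4 (ENSMUSG00000008206, chr8:4493026-4531680, plus strand) had 155 and 160 CPM in the untreated libraries, 138 and 142 under A66, 137 and 150 under palmitate, and 128 and 129 under both agents. The untreated libraries were the highest and those with both agents the lowest, and the palmitate libraries spanned the A66 libraries. Cers4 was lower with A66 than in untreated cells by a log2 fold change of -0.17 (SE 0.04, edgeR Benjamini-Hochberg adjusted p = 0.0326) in the fit of the 4 libraries without palmitate. In a fit of all 8 libraries the adjusted p was 0.0606, and it was 0.434 without A66 replicate 1 and 0.194 without A66 replicate 2. For palmitate plus A66 over palmitate the log2 fold change was -0.16 (SE 0.05, edgeR adjusted p = 0.0629).

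The Cers4 value in the presence of palmitate lay close to the threshold, and the call changed with the setting. DESeq2 gave an adjusted p of 0.0463, scaling by library size only gave 0.0283 in edgeR, and the replicate block gave 0.0446. The value rested on the palmitate libraries, with a log2 fold change of -0.22 (edgeR adjusted p = 0.0106) without palmitate replicate 1 and -0.089 (0.571) without palmitate replicate 2. The adjusted p was 0.0499 without untreated replicate 1 and above the threshold without each of the other 5 libraries. For palmitate over untreated, Cers4 had a log2 fold change of -0.14 (edgeR adjusted p = 0.175), which moved to -0.20 (0.0355) without palmitate replicate 2 and to -0.070 (0.747) without palmitate replicate 1. Of the fits that left out a library, only the first of these passed. The interaction for Cers4 was 0.01 (95% interval -0.12 to 0.15).

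Cers5 (ENSMUSG00000023021, chr15:99734881-99772885, minus strand) lay at 95.2 and 97.6 CPM in the untreated libraries, 97.4 and 98.2 under A66, 92.8 and 92.7 under palmitate, and 91.0 and 90.4 under both agents. The palmitate libraries were all below the others, by a small margin, and no comparison of Cers5 was called (palmitate plus A66 over A66, log2 fold change -0.11, edgeR adjusted p = 0.193). Cers6 (ENSMUSG00000027035, chr2:68861441-69114282, plus strand), the other synthase with a preference for palmitate, ranged from 54.5 to 59.7 CPM over the 8 libraries. Its log2 fold change for palmitate was -0.0045 against untreated cells and -0.0050 with A66 present, each with a 95% interval of -0.11 to 0.10. Cers2 (ENSMUSG00000015714, chr3:95314791-95323599, plus strand) ranged from 177 to 191 CPM, with both A66 libraries lowest, and its log2 fold change for A66 over untreated was -0.07 (95% interval -0.16 to 0.01).

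**Figure D2:**
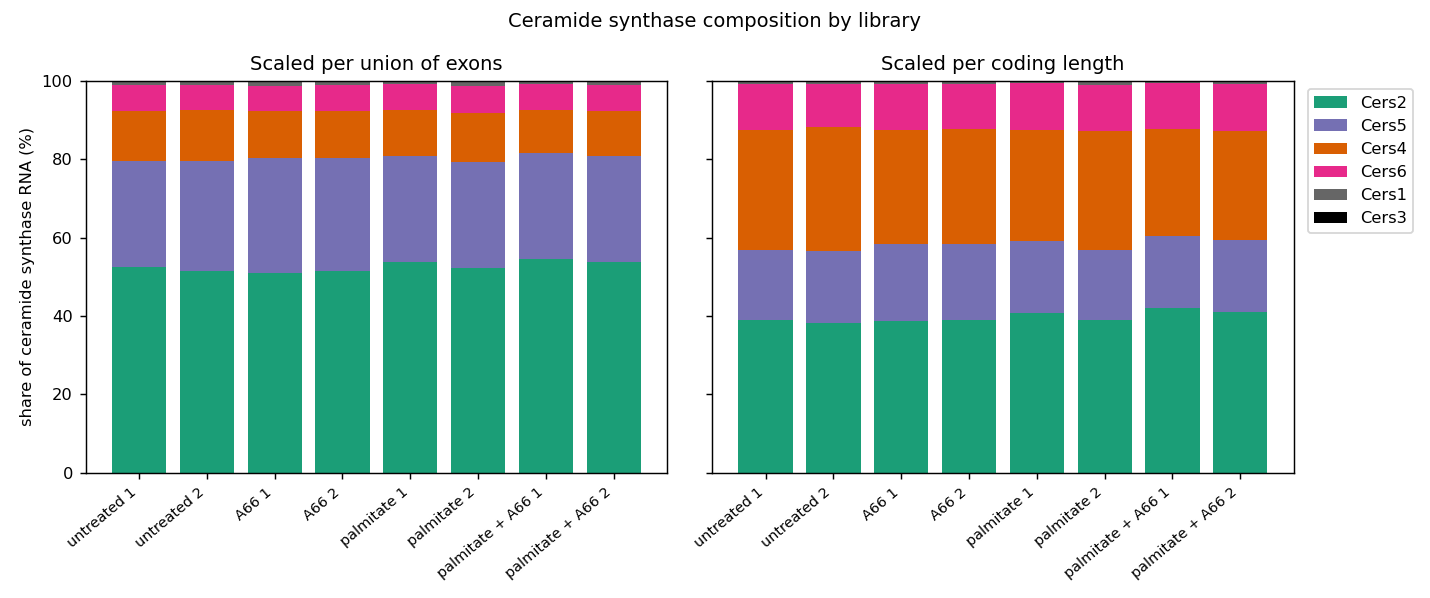
Share of each ceramide synthase in the summed synthase RNA of each library, per length of the exon union (left) or of the coding sequence (right), in percent. Cers2 holds the largest share in both panels, and the rank of Cers4 and Cers5 changes with the length used.

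Of all ceramide synthase RNA per length, Cers2 held 52.6% ± 1.27, Cers5 27.7% ± 0.87, Cers4 12.1% ± 0.77 and Cers6 6.63% ± 0.15 (mean ± SD over 8 libraries). Cers1 held 0.960% and Cers3, at the level of 2 to 11 counts per library, 0.0385%. Cers2 lay between 51.1% and 54.5% in all libraries. Cers4 held 12.8% and 13.2% in the untreated libraries, above all others, 12.0% in each A66 library, 11.6% and 12.6% under palmitate, and 11.01% and 11.25% under both agents, below all others. The gene model of Cers4 includes a transcript of 9475 bases, most of it untranslated. Per coding length the share of Cers4 was 29.4% and that of Cers5 18.5%, so the order of these genes is not settled by these counts, whereas Cers2 led on each length used.

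Degs1 (ENSMUSG00000038633, chr1:182275772-182282804, minus strand), the desaturase that introduces the double bond of ceramide, had 203 and 210 CPM in the untreated libraries, 194 and 202 under A66, 197 and 206 under palmitate, and 191 and 198 under both agents. The groups overlapped in a chain, and its log2 fold changes in the 4 pairwise comparisons lay between -0.06 and -0.02, none called. The 95% interval for palmitate over untreated was -0.13 to 0.05. Asah1 (ENSMUSG00000031591, chr8:41340197-41374773, minus strand) encodes the acid ceramidase of the lysosome. It had 318 and 322 CPM in the untreated libraries, 338 and 336 under A66, 364 and 354 under palmitate, and 371 and 363 under both agents. The order of the groups was untreated, A66, then both palmitate groups, which overlapped. Asah1 was higher with palmitate than in untreated cells by a log2 fold change of 0.16 (SE 0.04, edgeR Benjamini-Hochberg adjusted p = 0.0394). With A66 present it was 0.12 (SE 0.04, adjusted p = 0.102 in edgeR, 0.0431 in an edgeR fit of the 4 libraries compared, and 0.0232 in DESeq2). The call against untreated cells was lost without 6 of the 8 libraries, with edgeR adjusted p of 0.212 without untreated replicate 1, 0.0826 without untreated replicate 2, 0.0723 without A66 replicate 1, 0.0785 without A66 replicate 2, 0.273 without palmitate replicate 1 and 0.0542 without palmitate plus A66 replicate 2. It was also lost when scaling by library size only (0.0715) and in a fit of the 4 libraries compared (0.119).

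**Figure D3:**
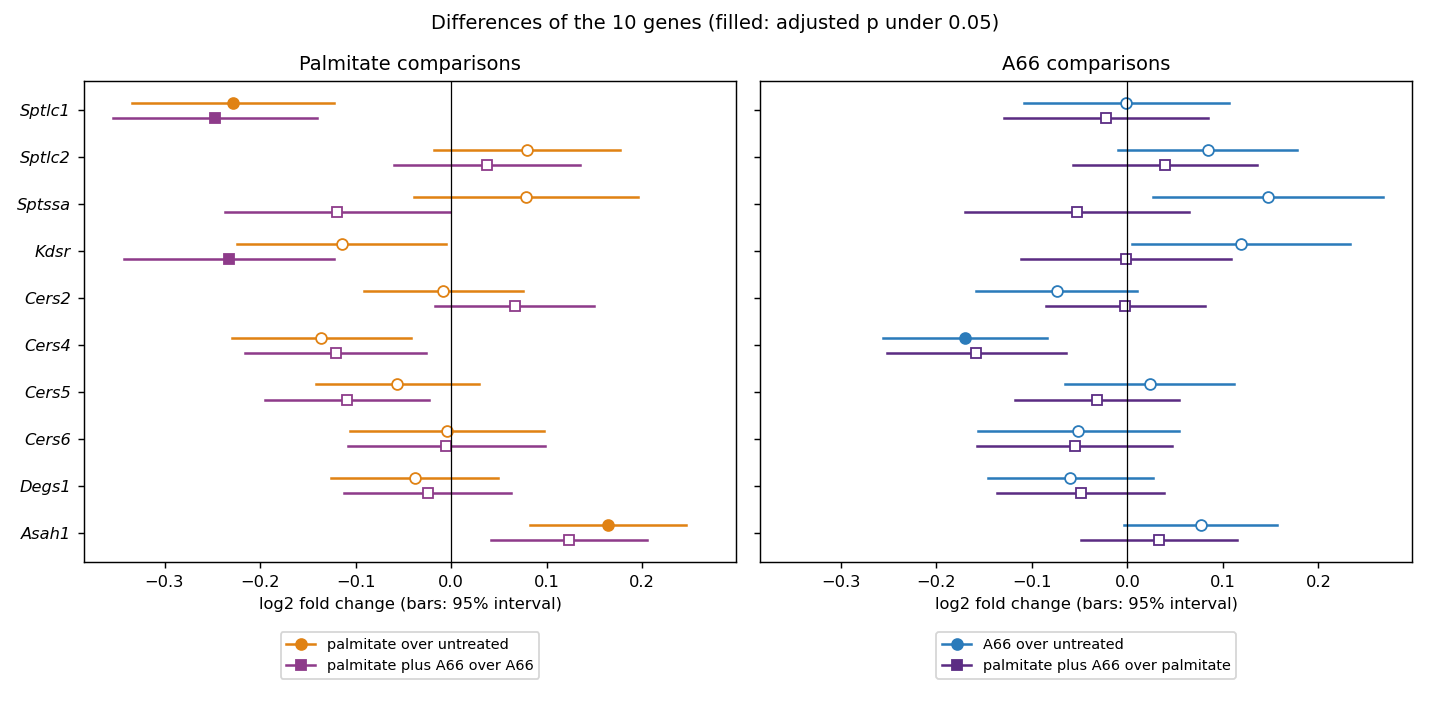
Log2 fold change of the 10 genes in the 2 palmitate comparisons (left) and the 2 A66 comparisons (right), with 95% intervals from edgeR. Filled symbols have an adjusted p under 0.05: Sptlc1 in both palmitate comparisons, Asah1 and Kdsr in 1 each, and Cers4 for A66 over untreated.

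Counted over the genes, palmitate over untreated called 2 of 10 (Sptlc1 lower, Asah1 higher), where 1.17% of the 14587 genes tested were called, 0.542% lower and 0.631% higher. Palmitate plus A66 over A66 called 2 of 10, both lower, against 2.73% of genes in either direction and 1.27% lower. A66 over untreated called 1 of 10, against 1.84% of 14158 genes and 0.77% lower, and palmitate plus A66 over palmitate called 0 of 10, against 2.81%. In the last comparison Cers4 alone had an unadjusted p under 0.05 in edgeR, and DESeq2 called 1, against 431 of 12010 genes. Over all genes, 2101 of 14587 had an unadjusted p under 0.05 in edgeR in that comparison. The number was 1753 of 14587 for palmitate over untreated, 2123 of 14587 with A66 present and 1813 of 14158 for A66 over untreated. Later counts at an unadjusted p are to be read beside these numbers. The interaction called 0 of 10 in both edgeR and DESeq2, against 0.00686% of genes. In edgeR 1 of the 10 had an unadjusted p under 0.05 for the interaction, where 1155 of 14587 genes had one. This gene was Sptssa, with an interaction of -0.20 and an edgeR adjusted p of 0.554. The median log2 fold change of the 10 genes was -0.02 for palmitate over untreated and -0.07 with A66 present, beside 0.00 over all genes tested in each. Groups that did not overlap were common at this size, with 40.5% of all genes for palmitate over untreated, 46.6% with A66 present, 42.5% for A66 over untreated and 44.3% for palmitate plus A66 over palmitate, against 6, 7, 7 and 4 of the 10 genes.

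Averaged over the presence and absence of A66, a contrast added after the values were seen, palmitate called 4 of 10 genes, where 5.05% of all genes were called, 2.32% lower and 2.73% higher. Sptlc1 had a log2 fold change of -0.24 (SE 0.04, n = 4 per group, edgeR adjusted p = 1.82e-04), Kdsr -0.17 (SE 0.04, edgeR adjusted p = 0.00627), Cers4 -0.13 (SE 0.03, 0.0191) and Asah1 0.14 (SE 0.03, 0.00242). On the 4 libraries against 4, Sptlc1, Kdsr and Cers5 were lower without overlap and Asah1 higher without overlap, where 7.68% of all genes did not overlap, 3.61% lower and 4.08% higher. Averaged over palmitate in the same way, A66 called only Cers4 of the 10 (-0.17, SE 0.03, edgeR adjusted p = 0.00259), against 4.97% of genes and 2.8% lower. On the 4 libraries with A66 against the 4 without, Cers4 overlapped, with 142 CPM in A66 replicate 2 and 137 CPM in palmitate replicate 1. Each averaged contrast uses the same libraries as the pairwise comparisons it averages and is no further evidence beside them.

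**Figure D4:**
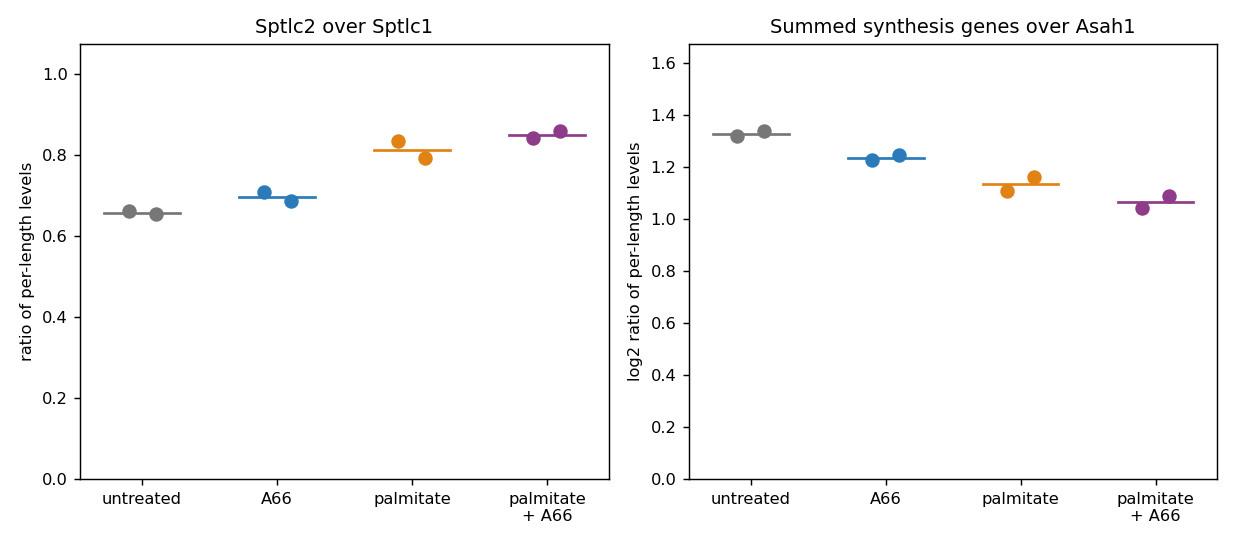
Ratio of Sptlc2 to Sptlc1 (left) and log2 ratio of the 9 summed synthesis genes to Asah1 (right), from levels per length in each library, with group means as lines (n = 2). The Sptlc2 ratio is higher, and the synthesis ratio lower, in the 4 palmitate libraries than in the other 4. The summed synthesis genes lie between 226 and 241 RPKM in all libraries.

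The 9 genes of synthesis, summed per length, were compared with Asah1 as a description without a test. The log2 ratio was 1.33 ± 0.01 for untreated libraries, 1.24 ± 0.01 under A66, 1.14 ± 0.04 under palmitate and 1.07 ± 0.03 under both agents (SD, n = 2). The groups fell in this order on each length used. No libraries of different groups overlapped. The sum itself was 234 and 241 RPKM in the untreated libraries, 234 and 235 under A66, 232 and 234 under palmitate, and 226 and 228 under both agents. It thus moved less than the ratio, whose other term, Asah1, was called higher for palmitate over untreated. The sum is weighted to the genes of highest level. In untreated cells Degs1 held 79.7 and Cers2 51.4 RPKM of it, against 13.8 for Sptlc1 and 5.03 for Kdsr. A change in Sptlc1 or Kdsr therefore moves the sum little.

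Adipocyte and other markers moved with palmitate too. Of 9 adipocyte markers, 5 were called lower for palmitate plus A66 over A66, where 1.27% of all genes were called lower. For palmitate over untreated 0 were called in edgeR, with 2 at an unadjusted p under 0.05. The 5 were Plin1 (-0.28), Cidec (-0.32), Adipoq (-0.24), Cfd (-0.27) and Lipe (-0.21, all log2 fold changes), a size close to that of Sptlc1 and Kdsr in the same comparison. The summed level was 8838 to 9361 CPM under A66, 7839 to 8586 under palmitate and 7603 to 8387 under both agents. The 6 pre-adipocyte and fibroblast markers summed to 945 to 976 CPM without treatment, 929 to 940 under A66, 1057 to 1117 under palmitate and 894 to 932 under both agents, and Col1a1 was called higher for palmitate over untreated (0.25), with a value of 0.0061 (edgeR adjusted p = 0.971) with A66 present. For palmitate plus A66 over palmitate, the comparison in which Cers4 lay near the threshold, Col1a1 (-0.33, edgeR adjusted p = 1.75e-04) and Cidec (-0.23, edgeR adjusted p = 0.0373) were called lower. The 5 macrophage markers summed to 2.80 to 3.70 CPM in untreated libraries and 5.65 to 5.96 CPM under both agents, nearly all of it Cd68, which was called higher for palmitate plus A66 over A66 (0.91, SE 0.16, edgeR adjusted p = 0.00140). The 3 endothelial markers summed to under 0.833 CPM. For A66 over untreated, the comparison in which Cers4 was called, 0 of these markers were called in edgeR. An unadjusted p under 0.05 was found there for 5 of 9 adipocyte markers and 3 of 5 tested pre-adipocyte and fibroblast markers. It was found for 0 of the tested macrophage and endothelial markers, and over all genes for 1813 of 14158. The part of these markers in the results was not tested.

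Beyond the 10 genes, other genes of sphingolipid metabolism and acyl-CoA supply were read from lists of the pathway. Of the 5 other subunits and regulators of serine palmitoyltransferase, 3 were tested. Ormdl2, an inhibitor of the enzyme, had 20.4 and 21.5 CPM with A66 and 25.8 and 24.0 with palmitate plus A66, a log2 fold change of 0.25 (SE 0.07, edgeR adjusted p = 0.0494), the 1 call among the 3 in that comparison, against 2.73% of all genes. Its relatives Ormdl1 and Ormdl3 were not called in any comparison. Of the 6 tested among 9 other synthases, desaturases and ceramidases (including the adiponectin receptors), 0 were called in any of the 4 pairwise comparisons, with 1 at an unadjusted p under 0.05 for palmitate plus A66 over A66 and 0 in the others (edgeR).

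Of the 9 sphingomyelin genes, 8 were tested, and 1 was called for palmitate over untreated (1.17% of all genes) and the same 1 with A66 present (2.73%). For A66 over untreated and palmitate plus A66 over palmitate 0 were called in edgeR, with 3 and 1 at an unadjusted p under 0.05. Col4a3bp, which encodes the transfer protein CERT that carries ceramide from the endoplasmic reticulum to the Golgi, had 86.5 and 83.3 CPM in the untreated libraries, 92.8 and 88.9 under A66, 73.4 and 70.8 under palmitate, and 76.1 and 73.8 under both agents. All 4 palmitate libraries were below all others. Its log2 fold change for palmitate was -0.24 (SE 0.045, edgeR adjusted p = 0.00715) and -0.28 with A66 present (SE 0.045, edgeR adjusted p = 5.79e-04). The sizes are near those of Sptlc1.

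Of the 11 glycosphingolipid and saposin genes, 9 were tested, and 1 was called in each of the 2 comparisons with both agents, against 2.73% of all genes over A66 and 2.81% over palmitate. For palmitate over untreated and A66 over untreated 0 were called in edgeR, with 3 and 1 at an unadjusted p under 0.05. B4galt5, a galactosyltransferase, had -0.24 for palmitate (edgeR adjusted p = 0.0505) and -0.21 with A66 present (edgeR adjusted p = 0.0674), and was called lower when palmitate was averaged over both A66 states (-0.22, edgeR adjusted p = 0.00199). Gla, the lysosomal α-galactosidase, was higher with palmitate plus A66 than with A66 by 0.36 (SE 0.08, edgeR adjusted p = 0.00995). Ugcg, which adds glucose to ceramide, was higher with palmitate plus A66 than with palmitate by 0.21 (SE 0.06, edgeR adjusted p = 0.0408), from 31.9 and 30.7 to 37.1 and 35.4 CPM. Of the 11 genes of sphingosine and ceramide phosphates, 10 were tested in that comparison and 2 called, against 2.81% of all genes, and 0 were called in edgeR for palmitate over untreated, palmitate plus A66 over A66 and A66 over untreated, with 0, 1 and 2 at an unadjusted p under 0.05. Sgpl1, the lyase that ends the pathway by cleaving sphingosine phosphate, was higher by 0.17 (SE 0.04, edgeR adjusted p = 0.0172), and the receptor S1pr3 was lower by -0.37 on the log2 scale (SE 0.09, edgeR adjusted p = 0.0292).

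Of 11 tested genes that activate or elongate the fatty acid, 5 were called for palmitate over untreated (1.17% of all genes) and 5 with A66 present (2.73%), in each case 4 higher and 1 lower. A66 over untreated called 2 of the 11, both lower (Acsl1 and the elongase Elovl6), against 1.84% of genes, and palmitate plus A66 over palmitate called 3, with Acsl1 and Elovl6 lower and Acsl4 higher, against 2.81%. Of the 4 acyl-CoA synthetases tested, Acsl1 was called lower and Acsl3 and Acsl4 higher in both palmitate comparisons, while Acsl5 had 0.047 (edgeR adjusted p = 0.756) and, with A66 present, 0.071 (edgeR adjusted p = 0.527). Acsl1, the main one of adipocytes, had 1746 and 1665 CPM in the untreated libraries, 1489 and 1405 under A66, 1384 and 1483 under palmitate, and 1036 and 1098 under both agents. It was lower in all 4 pairwise comparisons, by -0.25 for palmitate (SE 0.05, edgeR adjusted p = 0.00551), -0.44 for palmitate with A66 present (SE 0.05, edgeR adjusted p = 2.23e-06), -0.23 for A66 (SE 0.04, edgeR adjusted p = 0.00158) and -0.43 for A66 with palmitate present (SE 0.05, edgeR adjusted p = 1.97e-05).

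Acsl3, which is found on the endoplasmic reticulum and lipid droplets, was higher with palmitate, by 0.27 (SE 0.04, edgeR adjusted p = 0.00124) and by 0.43 with A66 present (SE 0.04, edgeR adjusted p = 1.83e-06). Acsl4, which prefers polyunsaturated fatty acids, was higher by 0.26 (SE 0.05, edgeR adjusted p = 0.00525) and 0.45 (SE 0.05, edgeR adjusted p = 3.28e-06). Tecr, the reductase of the last elongation step that also serves the breakdown of sphingosine phosphate, was higher by 0.22 (SE 0.04, edgeR adjusted p = 0.0122) and 0.32 (SE 0.04, edgeR adjusted p = 8.15e-05). The edgeR adjusted p of the interaction lay between 0.477 and 0.727 for these 4 genes. Of 6 genes known to respond to fatty acids, 0 were called for palmitate over untreated (1 at an unadjusted p under 0.05) and 1 with A66 present, Plin2 (0.21, SE 0.04, edgeR adjusted p = 0.00737), against 2.73% of all genes. Averaged over both A66 states, palmitate called 1 of the 6, Plin2 (0.19), against 5.05% of all genes. For A66 over untreated and for palmitate plus A66 over palmitate, 0 of the 6 were called in edgeR. An unadjusted p under 0.05 was found for 3 and 4 of them, where 1813 of 14158 and 2101 of 14587 genes had one. Averaged over both palmitate states, A66 called 3 of the 6 higher, Plin2 (0.12), Angptl4 (0.16) and Acot1 (1.19), against 4.97% of all genes in either direction. As a check of the palmitate label this list thus gave Plin2 alone.

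**Figure D5:**
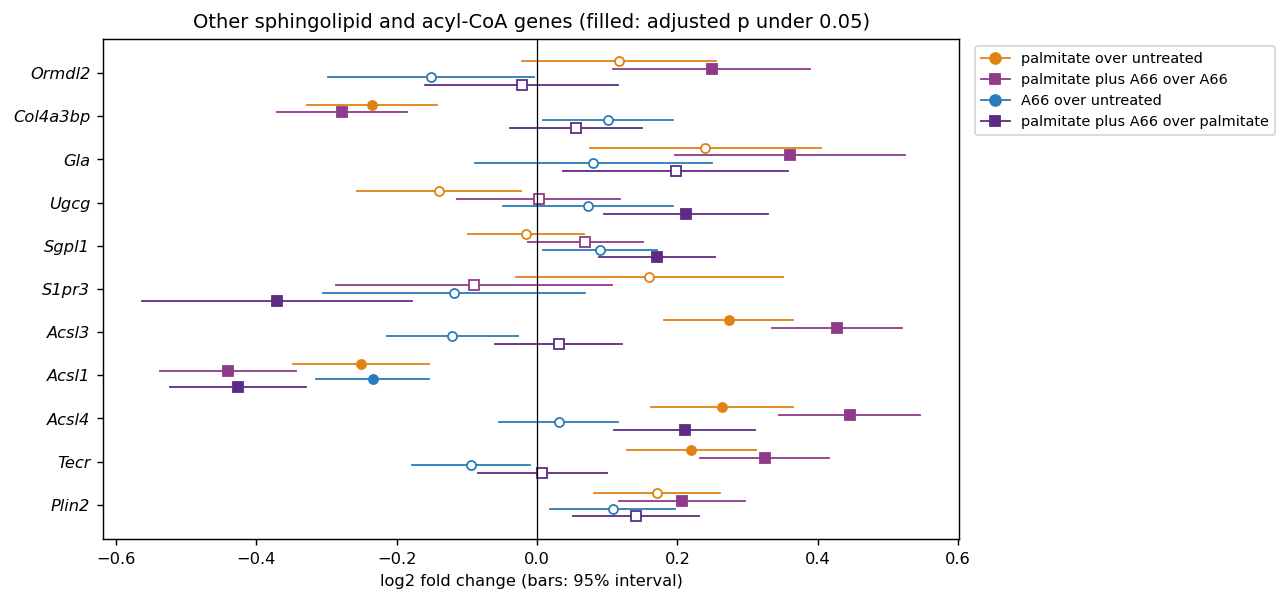
Log2 fold change with 95% intervals of the 11 further pathway genes taken by the naming rule, in the 4 pairwise comparisons, with filled symbols where the edgeR adjusted p is under 0.05. Col4a3bp and Acsl1 lie below 0 in both palmitate comparisons, and Acsl3, Acsl4 and Tecr above 0.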

How the data were processed

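Libraries were prepared from oligo dT-selected RNA with a stranded kit. According to the labels and methods, TopHat 2.0.11 placed the reads on GRCm38 and HTSeq counted them. The authors deposited these raw counts by Ensembl identifier. Annotation and strand setting are not given in the sources used here. The table also holds the output of the authors' own DESeq2 comparison (mean, fold change, SE, statistic and p-values), which was not used.

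Of 43629 genes, 42462 matched GENCODE M21, and 10 of 10 pathway genes were found. The counts (2 libraries per group, 42247091 to 57529803 in total) were tested in R 4.3.3 with the quasi-likelihood test of edgeR 4.0.16, with TMM scaling, filterByExpr (minimum count 10) and Benjamini-Hochberg adjustment over all genes tested at 0.05. A66 over untreated was fitted on the 4 libraries without palmitate, the other comparisons on all 8. CPM are counts scaled by TMM library size, and RPKM also by gene length. The tests were run on simulated data first, with planted changes larger than those called for the 10 genes. Recovery of changes as small as those called here was not checked. Nothing in the labels says that replicates came from separate cultures, whereas the methods name biological repeats, and p-values measure the spread between these libraries. The floor of 3 counts covers counting error only. Copies were sought with blastn 2.17.0.

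The 10 genes, the pathway lists and the markers were chosen with earlier results of these data known. Named were the 10 genes and, of each further list, at most 4 called in a pairwise comparison with the smallest adjusted p. Other names were chosen after their values were seen. Alternatives were RLE scaling, library size only, DESeq2 1.42.0, other count filters, a replicate block, other libraries in the fit and other gene lengths. The averaged contrasts and the coding length were added after seeing the data.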

Additional observations from a re-analysis of the deposited data

Results flagged for a closer look

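Of all genes tested for an interaction of A66 with palmitate, 1 was called, Hmox1 (heme oxygenase, an enzyme of the response to oxidative stress), which is not a gene of the pathway and was singled out after its values were seen. Its difference between the response to palmitate with and without A66 was 0.447 on the log2 scale (SE 0.06, edgeR adjusted p = 0.00194). Without A66 replicate 1 the difference was 0.43 and no longer called (edgeR adjusted p = 0.0675), and without each of the other 7 libraries the adjusted p lay between 4.57e-04 and 0.0265. Palmitate over untreated gave 0.02 (SE 0.04, edgeR adjusted p = 0.884) and palmitate plus A66 over A66 gave 0.47 (SE 0.04, edgeR adjusted p = 2.13e-07).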

How the results depend on the processing

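Settings other than those that leave out a library gave 360 values for the 10 genes, of which 342 kept direction and side of the threshold, 8 gained a call and 3 lost one. Leaving out a library gave 360 values as well, of which 307 kept direction and side of the threshold, 31 changed sign, 18 lost a call and 4 gained one. No value that had been called changed direction. Among values not called, the sign changed for Sptssa (-0.020) and Cers2 (0.029) when palmitate was averaged over both A66 states, for Cers5 (-0.0057) when A66 was averaged over both palmitate states, and without a filter for Cers6 under palmitate (0.0038) and Sptlc1 under A66 (0.0025). With at least 10 counts in every library, Kdsr (4.85e-04) and Cers2 (2.95e-05) changed sign for palmitate plus A66 over palmitate.

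Without a filter on low counts, edgeR called 396 genes for palmitate over untreated, 664 for palmitate plus A66 over A66, 459 for A66 over untreated, 652 for palmitate plus A66 over palmitate and 91 for the interaction. The averaged contrasts called 736 genes for palmitate and 725 for A66. A fit of only the 4 libraries compared called 689 genes for palmitate plus A66 over A66. The interaction called 2 genes with scaling by library size only, 8 with DESeq2 and 3 with the replicate block. Of the 10 genes, palmitate over untreated called 1 with library size only, 1 in the fit of 4 libraries and 4 in the averaged contrast. Palmitate plus A66 over A66 called 3, with Asah1 added, both with DESeq2 and in the fit of 4 libraries. A66 over untreated called 0 in the fit of all 8 libraries. Palmitate plus A66 over palmitate called 1 (Cers4) with library size only, with DESeq2, without a filter and with the replicate block. The cause of these differences was not tested.

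Replicate numbers did not pair the libraries. The correlation of deviations between same-numbered libraries of 2 groups, over 8956 genes, lay between -0.153 and 0.158, and nothing in the labels gives a shared day or batch. The replicate block called 195 genes for palmitate over untreated, 438 for palmitate plus A66 over A66, 282 for A66 over untreated and 448 for palmitate plus A66 over palmitate, and changed no call of the 10 genes other than that of Cers4.

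Leaving out each library in turn gave 71 to 245 genes for palmitate over untreated, 107 to 502 for palmitate plus A66 over A66, 98 to 635 for A66 over untreated, 147 to 494 for palmitate plus A66 over palmitate and 0 to 10 for the interaction. Of the 10 genes, these fits called 0 to 2, 0 to 2, 0 to 2, 0 to 1 and 0, in the same order. The log2 fold change of Cers4 ran from -0.20 to -0.070 for palmitate over untreated and from -0.22 to -0.089 for palmitate plus A66 over palmitate. Values near 0 changed sign between fits. For palmitate over untreated these were Cers2 (-0.026 to 0.0092) and Cers6 (-0.053 to 0.042), and with A66 present Cers6 (-0.030 to 0.019) and Degs1 (-0.052 to 0.0022). For A66 over untreated it was Sptlc1 (-0.024 to 0.026), and with palmitate present Sptlc1 (-0.058 to 0.012), Sptlc2 (-0.017 to 0.099), Kdsr (-0.017 to 0.013) and Cers2 (-0.017 to 0.013). For the interaction these were Sptlc1 (-0.056 to 0.017), Sptlc2 (-0.10 to 0.018), Cers4 (-0.051 to 0.081), Cers6 (-0.048 to 0.048) and Degs1 (-0.018 to 0.043). Where a group had 1 library left, it was assumed to vary like the others.

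Per longest transcript, Cers2 held 59.0%, Cers4 10.6%, Cers5 24.0% and Cers6 5.66% of ceramide synthase RNA, and per coding length 39.7%, 29.4%, 18.5% and 11.7%. The log2 ratio of the synthesis genes to Asah1 was 1.46 and 1.85 (longest transcript, coding length) without treatment, 1.37 and 1.77 under A66, 1.27 and 1.66 under palmitate, and 1.20 and 1.58 under both agents. With 2 libraries per group, a p above the threshold does not show equal levels, and intervals are given in its place.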
